A study of Mus musculus with 16 samples.

Results

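The genes described here are 9 genes of adipocyte lipolysis and its beta-adrenergic control, chosen by name from the 54532 genes of the deposited FPKM table: Pnpla2, Lipe, Mgll, Abhd5, Plin1, G0s2, Adrb1, Adrb3 and Pde3b. Their level was measured by RNA sequencing of whole inguinal white adipose tissue (iWAT), the subcutaneous fat depot of the groin, in 16 libraries from male mice that entered the experiment at 8 to 10 weeks of age. Every mouse ate chow with 200 mg/kg doxycycline for 5 days before harvest, controls included. Apn-Has2 mice (Has2_TG, 4 libraries) carried Apn-rtTA, which places the doxycycline-dependent activator rtTA under the adiponectin promoter of adipocytes, together with TRE-Has2, a transgene for the hyaluronan synthase Has2. Apn-PH20 mice (PH20_TG, 4 libraries) carried Apn-rtTA with TRE-PH20, a transgene for the hyaluronidase PH20 that is encoded by Spam1. Each line was compared with its own littermate Apn-rtTA mice (Has2_WT and PH20_WT, 4 libraries each), so that the controls carried the activator and received the drug as well. The comparisons ask whether 5 days of hyaluronan production or digestion by adipocytes changed gene expression in iWAT.

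Lipolysis breaks stored triglyceride down in successive steps. Pnpla2 (adipose triglyceride lipase, ATGL) removes the first fatty acid, Lipe (hormone-sensitive lipase) acts on the diglyceride, and Mgll (monoglyceride lipase) releases the last fatty acid and glycerol. Abhd5 (CGI-58) is the activator of Pnpla2, G0s2 is its inhibitor, and Plin1 (perilipin 1) coats the lipid droplet and holds Abhd5 until protein kinase A phosphorylates it. Adrb1 and Adrb3 encode the beta1- and beta3-adrenergic receptors, through which noradrenaline raises cAMP, and Pde3b encodes the phosphodiesterase by which insulin lowers it again. Much of this control acts on the proteins by phosphorylation and binding, which RNA levels do not show.

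Between 14421692 and 26751729 reads per library fell on genes. Has2 was at 2.59 ± 0.631 FPKM (SD, n = 4) in Has2_TG and at 0.585 ± 0.176 FPKM (SD, n = 4) in Has2_WT, with reads of the transgene and of the endogenous gene not told apart. For Spam1, 12 reads were counted in PH20_TG3, 6 in PH20_TG2 and 5 in PH20_TG4, and 0 were counted in the library labelled PH20_TG1 and in all 12 libraries outside PH20_TG. A count of 0 allows up to 3 reads. Has2 was at 3.32 FPKM in PH20_TG1 and 3.26 FPKM in PH20_TG4, above all Has2_TG libraries (1.86 to 3.24 FPKM). It was at 0.38 FPKM in PH20_TG2 and 0.0990 FPKM in PH20_TG3. PH20_TG1 thus stood apart from its group by its Spam1 and Has2 reads and PH20_TG4 by its Has2 reads. Whether these Has2 reads came from a transgene or the endogenous gene was not tested. All 8 adipocyte markers on the list used (among them Adipoq, Lep and Pparg) were above 3 reads in all 16 libraries. A set of 4 control libraries, Has2_WT1, Has2_WT2, PH20_WT1 and PH20_WT3, stood apart by lymphocyte transcripts: the summed level of 7 T cell markers was 60.6 to 162 FPKM in these 4 and 0.993 to 9.62 FPKM in the other 12. The counts, medians and ratios of the 9 genes in each comparison are therefore also given without these libraries, an alternative chosen after the data were seen.

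The mean level over the 16 libraries spread widely among the 9 genes. FPKM is a level per length, so that genes can be set side by side. Pnpla2 was the most abundant at 878 FPKM and ranked 34 of all 54532 genes, followed by Plin1 (537 FPKM), Lipe (396 FPKM), G0s2 (334 FPKM), Mgll (244 FPKM) and Adrb3 (243 FPKM). Pde3b (36.7 FPKM), Abhd5 (17.0 FPKM) and Adrb1 (4.27 FPKM) were far lower, and Adrb1 ranked 7739. The activator of the first lipase was thus present at a much lower RNA level than the lipase itself or its inhibitor. Within each library Pnpla2 lay above Plin1 and Plin1 above Lipe, in 16 of 16 libraries each. Adrb3 lay above Pde3b, Pde3b above Abhd5 and Abhd5 above Adrb1, again in 16 of 16. The order was unsettled in the middle, where Lipe was above G0s2 in 11 of 16 libraries, G0s2 above Mgll in 12 of 16 and Mgll above Adrb3 in 8 of 16. The group means had the same order in Has2_WT and Has2_TG. In PH20_WT they placed Adrb3 above Mgll and Mgll above G0s2, and in PH20_TG they placed G0s2 above Adrb3 and Adrb3 above Mgll. The reads behind a value ranged from 60 to 508 per library for Adrb1 and were at least 1151 for each of the other genes.

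**Figure D1:**
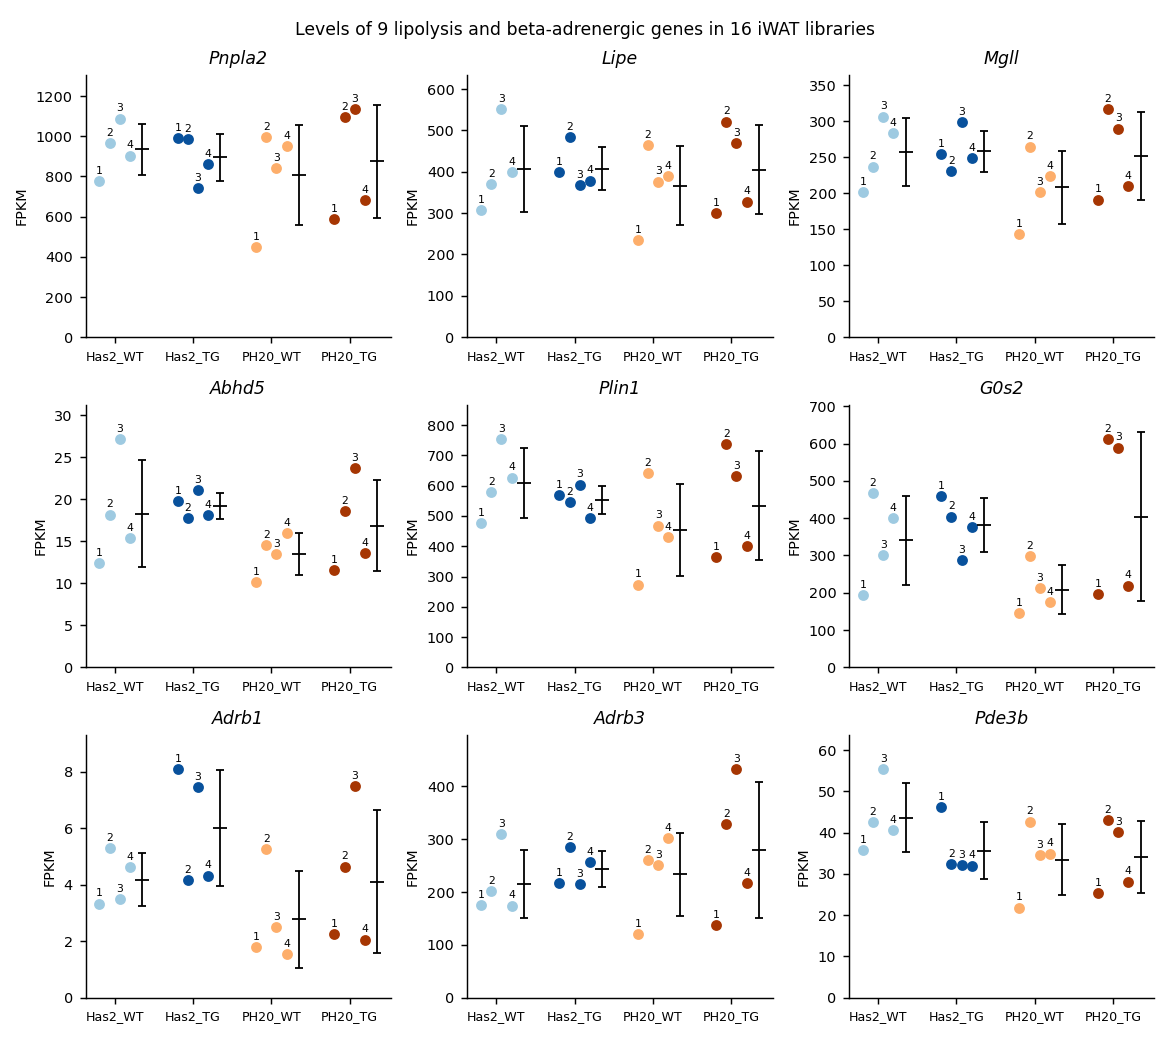
FPKM of each of the 9 genes (vertical axis, linear, from 0) in the 16 libraries (points, numbered as in the labels) by group, with the mean and SD of each group of 4 beside the points. The groups overlap for every gene, PH20_WT1 is the lowest library for 8 of the 9 genes, and PH20_TG2 and PH20_TG3 lie above PH20_TG1 and PH20_TG4 throughout.

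All 9 genes are protein coding. In GRCm38, 4 of them lie on chromosome 7: Pnpla2 (from 141455198 to 141460743, plus strand), Lipe (25379527 to 25398710, minus), Plin1 (79720218 to 79732903, minus) and Pde3b (114415281 to 114539251, plus). G0s2 is on chromosome 1 (193272161 to 193273217, minus), Mgll on chromosome 6 (88724412 to 88828360, plus), Adrb3 on chromosome 8 (27225776 to 27250616, minus), Abhd5 on chromosome 9 (122351608 to 122381524, plus) and Adrb1 on chromosome 19 (56722372 to 56724862, plus). Annotated genes on the opposite strand overlap 5 of them, and the strand setting of the counting was not given in the sources used here. The most abundant of these neighbours, Gm45470 at Adrb3, had a mean of 5.34 FPKM over the 16 libraries against 243 FPKM for Adrb3, and the antisense gene at Lipe (4732471J01Rik) had 2.41 FPKM. The other opposite-strand neighbours had means below that of the antisense gene at Lipe.

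Since cAMP acts on transcription through the factor CREB, the sequence before the start of these genes was searched for the cAMP response element and, for comparison, for the E-box CACGTG, which many basic helix-loop-helix factors bind. RefSeq windows (build GRCm38.p6) covering the 250 bases before a start matched 7 of the 9 genes, in 9 windows. The full element TGACGTCA was in 0 of these 9 windows and in 1.55% of the 32851 windows of all genes, on either strand. Its core TGACG, which the full element contains, was in 3 of the 9 (G0s2, Abhd5 and Adrb1) and in 17.8% of all windows. CACGTG, which reads the same on both strands, was in 2 of the 9 (Lipe and Mgll) and in 6.02% of all windows. The 5 windows that hold a match are shown 5′ to 3′ on the strand of the gene, with the matched bases in capitals, because they let the core element and the E-box be placed in the genes whose levels are given here. In G0s2 the core is on the other strand and reads CGTCA. The windows are chr1:193273189-193273438 (minus strand) for G0s2, chr9:122351366-122351615 (plus) for Abhd5, chr19:56721867-56722116 (plus) for Adrb1, chr7:25395988-25396237 (minus) for Lipe and chr6:88724162-88724411 (plus) for Mgll.
G0s2: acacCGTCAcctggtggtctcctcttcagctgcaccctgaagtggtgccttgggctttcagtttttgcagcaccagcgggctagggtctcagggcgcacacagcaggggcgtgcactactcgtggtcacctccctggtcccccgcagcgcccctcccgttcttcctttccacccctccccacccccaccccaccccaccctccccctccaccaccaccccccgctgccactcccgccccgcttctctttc
Abhd5: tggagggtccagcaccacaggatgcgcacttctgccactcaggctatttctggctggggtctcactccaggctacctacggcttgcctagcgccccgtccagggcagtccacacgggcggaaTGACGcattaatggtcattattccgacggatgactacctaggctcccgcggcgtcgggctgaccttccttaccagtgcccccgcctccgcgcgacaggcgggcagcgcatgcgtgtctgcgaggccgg
Adrb1: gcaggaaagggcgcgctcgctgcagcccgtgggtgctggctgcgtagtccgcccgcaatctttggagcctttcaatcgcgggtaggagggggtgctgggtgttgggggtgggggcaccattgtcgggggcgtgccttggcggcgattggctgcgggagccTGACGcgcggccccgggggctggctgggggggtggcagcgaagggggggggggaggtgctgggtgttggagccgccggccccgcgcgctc
Lipe: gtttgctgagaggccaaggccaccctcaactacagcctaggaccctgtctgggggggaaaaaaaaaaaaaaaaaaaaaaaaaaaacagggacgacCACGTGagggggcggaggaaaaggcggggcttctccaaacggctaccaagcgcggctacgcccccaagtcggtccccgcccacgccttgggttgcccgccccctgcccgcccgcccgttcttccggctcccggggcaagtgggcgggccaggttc
Mgll: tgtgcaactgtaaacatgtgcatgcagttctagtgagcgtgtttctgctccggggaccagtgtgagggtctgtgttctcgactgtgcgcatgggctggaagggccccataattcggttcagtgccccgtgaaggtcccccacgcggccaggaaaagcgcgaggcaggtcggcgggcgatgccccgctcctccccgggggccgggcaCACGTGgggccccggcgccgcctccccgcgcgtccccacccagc
The match began 246 bases before the start in G0s2, 128 in Abhd5, 90 in Adrb1, 155 in Lipe and 44 in Mgll. These are RefSeq starts, which can differ from the gene spans given above. The Lipe window lies inside the span of Lipe, and the Adrb1 window ends at 56722116, before the span of Adrb1 begins (56722372). A match in these letters is a description of the window and was not tested as a binding site.

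In Apn-Has2 iWAT, none of the 9 genes passed the test against Has2_WT (0 of 9 at an unadjusted p-value under 0.05, moderated two-sided limma test of log2(FPKM + 0.1)), where 10% of the 12606 genes tested passed. With Benjamini-Hochberg adjusted p-values 0 of 9 passed as well, against 0.103% of all genes. The libraries of the groups overlapped for all 9 genes, while they did not overlap for 6.19% of all genes. The median log2 fold change of the 9 genes was 0.026, against -0.027 for all genes, with 6 genes higher and 3 lower in Has2_TG. The largest difference was that of a receptor, Adrb1, and the next that of the phosphodiesterase Pde3b.

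The beta1-adrenergic receptor Adrb1 was at 3.33, 5.30, 3.48 and 4.63 FPKM in Has2_WT1 to Has2_WT4 and at 8.09, 4.16, 7.46 and 4.32 FPKM in Has2_TG1 to Has2_TG4. Has2_TG1 and Has2_TG3 lay above all controls and the other 2 transgenic libraries lay among them. The log2 fold change of Adrb1 was 0.47 (SE 0.27, 95% confidence interval -0.14 to 1.09, limma adjusted p = 0.632). The beta3-adrenergic receptor Adrb3, the main beta-adrenergic receptor of mouse adipocytes, was at 175, 201, 309.7 and 174 FPKM in the controls and at 217, 285, 214 and 257 FPKM in Has2_TG. Here Has2_WT3 was higher than every transgenic library and the other 3 controls were lower than every one of them. The log2 fold change was 0.21 (SE 0.21, interval -0.27 to 0.68), and it became 0.40 without Has2_WT3, which passed the unadjusted threshold (limma adjusted p = 0.462).

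Pde3b was at 35.8, 42.6, 55.4 and 40.6 FPKM in Has2_WT1 to Has2_WT4 and at 46.1, 32.4, 32.0 and 32.0 FPKM in Has2_TG1 to Has2_TG4. The other 3 transgenic libraries lay close together below every control, and Has2_TG1 lay in the upper part of the control range. The log2 fold change was -0.29 (SE 0.18, interval -0.70 to 0.12, limma adjusted p = 0.659), and without Has2_TG1 it was -0.42 and passed the unadjusted threshold (limma adjusted p = 0.468).

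The lipases differed between the groups by less than their spread. Pnpla2 was at 778, 966, 1088 and 904 FPKM in the 4 controls and at 990.0, 987, 743 and 863 FPKM in Has2_TG1 to Has2_TG4, a log2 fold change of -0.060 (SE 0.20, interval -0.50 to 0.38). Lipe was at 308, 369.9, 552 and 398 FPKM in the controls against 399.6, 483, 368 and 379 FPKM in the transgenic libraries, a log2 fold change of 0.026 (SE 0.21, interval -0.44 to 0.49). Mgll was at 202, 237, 306 and 284 FPKM against 255, 231, 299 and 249 FPKM, a log2 fold change of 0.019 (SE 0.18, interval -0.37 to 0.41). For each lipase the transgenic libraries fell inside the range of the controls, except that Pnpla2 in Has2_TG3 was below it. The intervals bound the change of each lipase in Has2_TG to between 0.706-fold, the lower end for Pnpla2, and 1.40-fold, the upper end for Lipe.

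The RNA levels of the activator Abhd5, of Plin1, which holds it, and of the inhibitor G0s2 also differed by less than their spread. The activator Abhd5 was at 12.4, 18.2, 27.2 and 15.4 FPKM in Has2_WT1 to Has2_WT4 and at 19.8, 17.8, 21.1 and 18.1 FPKM in Has2_TG, a log2 fold change of 0.13 (SE 0.22, interval -0.38 to 0.63). Plin1 was at 476, 579, 754 and 627 FPKM in the controls and at 569.5, 546, 603 and 492 FPKM in Has2_TG, a log2 fold change of -0.12 (SE 0.19, interval -0.55 to 0.30). The inhibitor G0s2 was at 194, 468, 300.3 and 401 FPKM against 459, 404, 287 and 375 FPKM, a log2 fold change of 0.22 (SE 0.28, interval -0.41 to 0.84). The controls were the more scattered group for all 3 of these genes, and they enclosed every Has2_TG library of Abhd5, Plin1 and G0s2. Without Has2_WT1 and Has2_WT2, the controls rich in lymphocyte transcripts, 0 of 9 genes passed the test, against 9.59% of all genes. The median log2 fold change was -0.16 with 3 genes higher in Has2_TG. Lipe, Mgll and Abhd5 then had the opposite sign, at -0.21, -0.20 and -0.096. With 1 library left out the median ranged from -0.092 (without Has2_WT1) to 0.18 (without Has2_WT3).

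**Figure D2:**
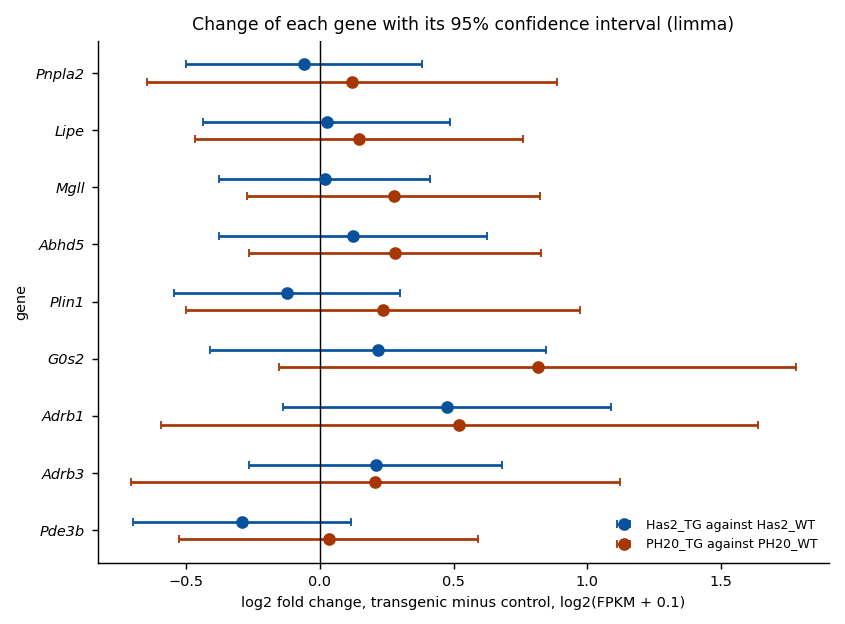
Log2 fold change (horizontal axis, transgenic minus control, on log2(FPKM + 0.1)) of each of the 9 genes in the Has2 study (blue) and the PH20 study (red), as points with the 95% confidence interval from limma. Every interval includes 0, the PH20 points all lie above 0, and the widest interval is that of Adrb1 in the PH20 study.

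In Apn-PH20 iWAT, 0 of 9 genes passed the test against PH20_WT, where 6.59% of the 12532 genes tested passed, and 0 of 9 passed after adjustment. The libraries overlapped for all 9 genes, against 4.54% of all genes with no overlap. All 9 were higher in PH20_TG, with a median log2 fold change of 0.24 against 0.0090 for all genes, but the genes moved together from library to library, so that the 9 directions are not 9 separate observations. Without PH20_WT1 and PH20_WT3, the controls rich in lymphocyte transcripts, the median was -0.041 and 4 of 9 genes were higher. Without PH20_WT1 alone it was 0.015 with 5 genes higher. Without PH20_TG1 it was 0.40, with 9 of 9 higher and 1 of 9 genes (G0s2) past the unadjusted threshold, against 9.35% of all genes. Without PH20_TG4 it was 0.35, with 9 of 9 higher and 1 of 9 genes (G0s2) past, against 6.04% of all genes. Without PH20_TG2 it was 0.087 with 7 genes higher, and without PH20_TG3 it was 0.10 with 6 higher. The inhibitor G0s2 had the largest difference, and the receptor Adrb1 the next.

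G0s2 was at 147, 297, 213 and 175 FPKM in PH20_WT1 to PH20_WT4 and at 196, 612, 589 and 219.5 FPKM in PH20_TG1 to PH20_TG4. PH20_TG2 and PH20_TG3 lay far above every other library of the study, and PH20_TG1 and PH20_TG4 lay within the control range. The log2 fold change was 0.81 (SE 0.43, 95% confidence interval -0.15 to 1.78, limma adjusted p = 0.731). It was 1.10 without PH20_TG1 and 1.04 without PH20_TG4, both past the unadjusted threshold (limma adjusted p-values of 0.523 and 0.805), and it was 0.55 or more with any 1 library left out.

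Adrb1 was at 1.79, 5.26, 2.50 and 1.53 FPKM in PH20_WT1 to PH20_WT4 and at 2.25, 4.64, 7.48 and 2.06 FPKM in PH20_TG, where PH20_TG3 alone exceeded the highest control. Its log2 fold change was 0.52 (SE 0.49, interval -0.59 to 1.64). Adrb3 was at 121, 261, 251 and 303 FPKM in the controls and at 138, 328, 433 and 217 FPKM in PH20_TG, a log2 fold change of 0.21 (SE 0.40, interval -0.71 to 1.12). PH20_TG2 and PH20_TG3 lay above all controls for Adrb3, and PH20_TG1 lay next to the lowest control. Pde3b was at 21.8, 42.7, 34.5 and 34.9 FPKM in PH20_WT1 to PH20_WT4 and at 25.3, 43.0, 40.1 and 28.1 FPKM in PH20_TG1 to PH20_TG4. Its log2 fold change of 0.033 (SE 0.25, interval -0.53 to 0.59) was the smallest of the 9.

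The lipases repeated the split inside PH20_TG. Pnpla2 was at 449, 994, 840.4 and 949 FPKM in PH20_WT1 to PH20_WT4 and at 587, 1095, 1137 and 682 FPKM in PH20_TG1 to PH20_TG4, a log2 fold change of 0.12 (SE 0.34, interval -0.64 to 0.89). Lipe was at 235, 465, 376 and 389.8 FPKM in the controls and at 300.3, 521, 469.8 and 328 FPKM in PH20_TG, a log2 fold change of 0.15 (SE 0.27, interval -0.47 to 0.76). Mgll was at 144, 265, 202 and 223 FPKM against 191, 317, 289.7 and 210.1 FPKM, a log2 fold change of 0.28 (SE 0.24, interval -0.27 to 0.82). In all 3 lipases PH20_TG2 and PH20_TG3 were above every control, and PH20_TG1 and PH20_TG4 fell within the control range.

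At the droplet, Abhd5 was at 10.1, 14.5, 13.4 and 15.9 FPKM in PH20_WT1 to PH20_WT4 and at 11.6, 18.6, 23.7 and 13.6 FPKM in PH20_TG1 to PH20_TG4. Plin1 was at 273, 642, 468 and 431 FPKM in the controls and at 365, 738, 631 and 401 FPKM in PH20_TG. The log2 fold change was 0.28 (SE 0.24, interval -0.26 to 0.83) for Abhd5 and 0.24 (SE 0.32, interval -0.50 to 0.97) for Plin1. The SE of the 9 genes was 0.24 to 0.49 in this study and 0.18 to 0.28 in the Has2 study.

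The effects of the transgenes on the 9 genes did not differ detectably between the studies. For the difference of the log2 fold changes, Has2 study minus PH20 study, 0 of 9 genes passed at an unadjusted p-value under 0.05 in the fit of all 16 libraries, against 7.70% of the 12593 genes tested. The smallest p-value belonged to G0s2, with a difference of -0.60 (SE 0.54, interval -1.74 to 0.55, limma adjusted p = 0.842). For the receptors the difference was -0.047 for Adrb1 (interval -1.31 to 1.22) and 0.00082 for Adrb3 (interval -1.01 to 1.02). These intervals are wide, so similar effects are not shown by them. The median difference of the 9 genes was -0.18 with 1 gene above 0. Without the lymphocyte-rich controls it was -0.19 with 3 above 0 and 0 of 9 past the threshold, against 5.74% of all genes.

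The control groups, which carry Apn-rtTA on the same drug but are littermates of different transgenic mice, were compared in the same fit. Between Has2_WT and PH20_WT 0 of 9 genes passed, against 10.3% of all genes, and 8 of 9 were higher in Has2_WT with a median log2 difference of 0.39 (all genes, -0.013). Since the 9 genes moved together from library to library, these directions are not separate observations. The libraries of the control groups overlapped for all 9 genes, against 6.34% of all genes with no overlap. The largest differences were those of Adrb1 (0.72, SE 0.42, limma adjusted p = 0.569) and G0s2 (0.69, SE 0.38, limma adjusted p = 0.547). Adrb3 was the 1 gene that was lower in Has2_WT, by a log2 difference of -0.082. The median log2 difference was 0.21 without PH20_WT1, 0.23 without Has2_WT3 and 0.30 without the lymphocyte-rich controls. Without the latter 0 of 9 genes passed, against 6.37% of all genes, and 8 of 9 were higher in Has2_WT. Without PH20_WT2, 4 of 9 genes passed (Plin1, G0s2, Adrb1 and Pde3b), against 12.8% of all genes. Without Has2_WT1, 2 of 9 passed (Abhd5 and G0s2), against 11.4% of all genes.

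The 9 genes moved together from library to library. PH20_WT1 was the lowest of all 16 libraries for 8 of 9 genes, and PH20_WT4 was the lowest for Adrb1. Averaged over the 9 genes, the log2 deviation of the level from the mean of the 16 libraries was -0.86 in PH20_WT1, -0.54 in PH20_TG1 and -0.35 in PH20_TG4. It was highest in PH20_TG3 (0.53), PH20_TG2 (0.44) and Has2_WT3 (0.38). Inside PH20_TG, all 9 genes were higher in PH20_TG2 and PH20_TG3 than in PH20_TG1 and PH20_TG4. The lowest of the upper pair exceeded the highest of the lower pair by 1.37-fold for Abhd5, 1.43-fold for Lipe, 1.61-fold for Pnpla2, 2.06-fold for Adrb1 and 2.68-fold for G0s2. The labels give these 4 libraries 1 group, and no group was formed from this split. The split was seen in these same values. Neither it nor the lowest place of PH20_WT1 has a share of all genes beside it, so both are descriptions.

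**Figure D3:**
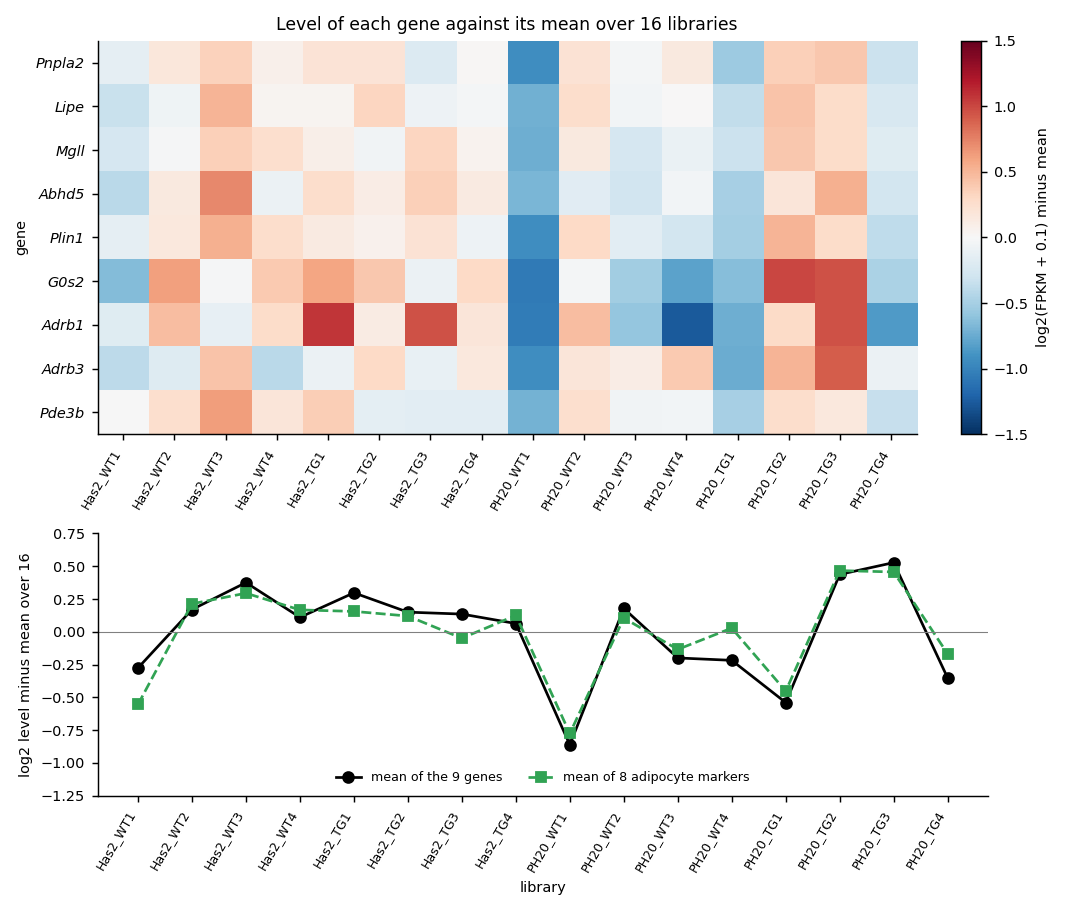
Upper panel, log2(FPKM + 0.1) of each gene (rows) minus its mean over 16 libraries (columns), in colour from -1.5 to 1.5. Lower panel, the mean of these deviations over the 9 genes (black) and the same for the mean of 8 adipocyte markers (green). Both lines are lowest in PH20_WT1 and highest in PH20_TG2 and PH20_TG3, and Has2_WT1 is where the 9 genes lie farthest above the markers.

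Other transcripts moved with these libraries. The adipocyte marker score, the mean log2 level of the 8 markers, was lowest in PH20_WT1 (7.52), Has2_WT1 (7.74) and PH20_TG1 (7.84) and highest in PH20_TG2 (8.76) and PH20_TG3 (8.75). Summed adipocyte progenitor markers were at 1219 FPKM in PH20_TG1 and 1165 FPKM in PH20_TG4, against 225 FPKM in PH20_TG2 and 303 FPKM in PH20_TG3. Summed macrophage markers were at 1500 and 465 FPKM in PH20_TG1 and PH20_TG4 and at 159 and 233 FPKM in PH20_TG2 and PH20_TG3. These are the libraries in which Has2 was high (PH20_TG1 and PH20_TG4) or low (PH20_TG2 and PH20_TG3). The part of these transcripts in the levels of the 9 genes was not tested, and in bulk RNA fewer adipocytes and less RNA per adipocyte cannot be told apart. Summed skeletal muscle markers were at 244 to 1022 FPKM in PH20_WT and at 10.0 to 291 FPKM in PH20_TG.

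Taken relative to the adipocyte marker score of the same library, the 9 genes varied less. The SD over 16 libraries on the log2 scale went from 0.36 to 0.15 for Pnpla2, from 0.32 to 0.15 for Lipe, from 0.30 to 0.17 for Mgll and from 0.39 to 0.20 for Plin1. It remained larger for G0s2 (0.64 to 0.38), Adrb3 (0.48 to 0.28) and above all Adrb1 (0.73 to 0.58). On this scale the mean of the 9 genes ranged from -0.25 in PH20_WT4 to 0.28 in Has2_WT1. PH20_TG4 (-0.18), PH20_TG1 (-0.087) and PH20_WT1 (-0.086) came next after PH20_WT4 at the low end. Unscaled, these libraries were at -0.35, -0.54 and -0.86. In the PH20 study the median log2 fold change of the 9 genes was then -0.033, with 4 of 9 higher, while the median of all genes moved from 0.0090 to -0.26. In the Has2 study the median of the 9 was -0.032 with 4 of 9 higher, while the median of all genes moved from -0.027 to -0.084. Between the controls the median of the 9 was 0.17 with 7 of 9 higher in Has2_WT, while the median of all genes moved from -0.013 to -0.24. This scaling shifts every gene of a library alike, so that the distance of the 9 genes from all genes is the same on both scales by construction. The test passed 0 of 9 genes in each study on this scale too, against 2.67% of all genes in the PH20 study and 6.54% in the Has2 study.

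Pearson's r of log2(FPKM + 0.1) over the 16 libraries had a median of 0.76 over the 36 pairs of the 9 genes. It was lowest for the 2 receptors, Adrb3 and Adrb1 (0.35), and highest for Plin1 and Mgll (0.95). These points share libraries that differ in the level of adipocyte markers, and r is given as a description. The gene most like each of the 9, among the 12593 genes whose mean reached 50 reads, was Ivd for Pnpla2 (r = 0.97), Nfs1 for Lipe (0.96), Abcd2 for Mgll (0.95), Lncbate1 for Abhd5 (0.96) and Fitm2 for Plin1 (0.95). It was Abhd15 for G0s2 (0.91), Pde1a for Adrb1 (0.90), Hagh for Adrb3 (0.93) and Acsl1 for Pde3b (0.97). The next places were Cpt2 and Apmap for Pnpla2, Acbd4 and Apmap for Lipe, Rab3d and Ltbp3 for Mgll, Tmem120a and Ubac1 for Abhd5, and Cluh and Abcd2 for Plin1. They were Steap4 and Cmbl for G0s2, Negr1 and Slc39a9 for Adrb1, Adig and Bsg for Adrb3, and Mut and Dld for Pde3b. Apmap was thus named for both Pnpla2 and Lipe, and Abcd2 for both Mgll and Plin1.

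Ratios within a library do not depend on the scaling between libraries, and 3 were formed. They were the lipase Pnpla2 to its inhibitor G0s2, Plin1 to Abhd5, which it holds, and the receptor Adrb3 to the receptor Adrb1. Pnpla2 to G0s2 was 3.07, 3.34, 3.95 and 5.42 in PH20_WT1 to PH20_WT4 and 2.99, 1.79, 1.93 and 3.11 in PH20_TG1 to PH20_TG4. PH20_TG4 was the 1 transgenic library above a control, the lowest. The mean log2 ratio was lower in PH20_TG by a difference of -0.69 (exact permutation test over 70 splits of 8 libraries, two-sided, p = 0.0571, adjusted over 6 ratios 0.343). In the Has2 study the same ratio was 2.07 to 4.01 in the controls and 2.16 to 2.59 in Has2_TG, a difference of -0.28 (exact p = 0.4).

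Plin1 to Abhd5 was 38.3, 31.8, 27.8 and 40.7 in Has2_WT1 to Has2_WT4 and 28.8, 30.7, 28.6 and 27.2 in Has2_TG1 to Has2_TG4, which formed a narrow band at the low end of the controls. The log2 difference was -0.25 (exact permutation p = 0.114, adjusted 0.343), and in the PH20 study it was -0.045 (exact p = 0.771). Adrb3 exceeded Adrb1 by 26.8-fold, in Has2_TG1, to 198-fold, in PH20_WT4, and the log2 difference was -0.27 in the Has2 study (exact p = 0.543) and -0.31 in the PH20 study (exact p = 0.6). Without the lymphocyte-rich controls the log2 differences of Pnpla2 to G0s2, Plin1 to Abhd5 and Adrb3 to Adrb1 were -0.27, -0.22 and -0.45 in the Has2 study and -0.84, -0.13 and -0.45 in the PH20 study, where 2 controls are too few for a test to pass. None of the 6 ratio tests passed, and the smallest p-value that 4 libraries against 4 allow is 0.0286.

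**Figure D4:**
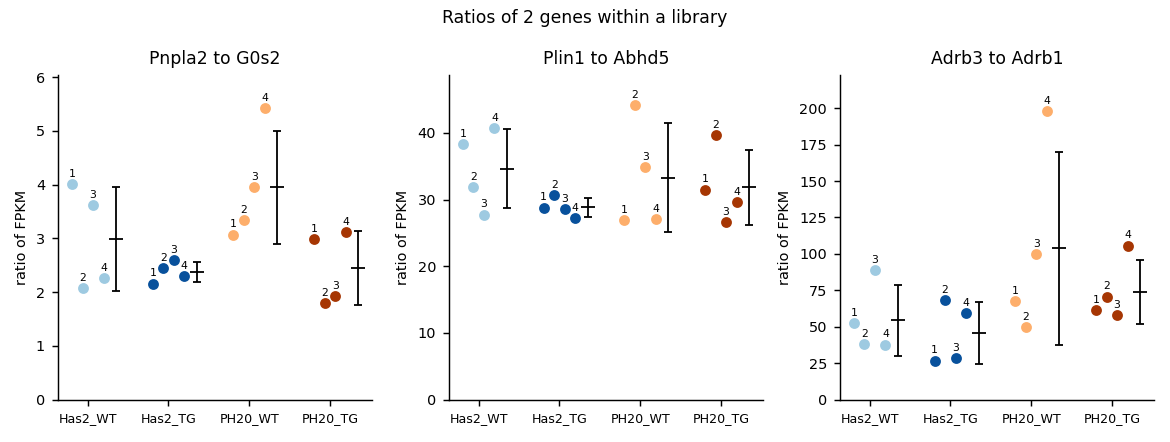
Ratio of the FPKM of a pair of genes within each library (vertical axis, linear, from 0; points numbered as in the labels) by group, with the mean and SD of each group of 4. PH20_TG2 and PH20_TG3 have the lowest Pnpla2 to G0s2 ratios of the 16 libraries (1.79 and 1.93), and the Has2_TG libraries form a narrow band for Plin1 to Abhd5 (27.2 to 30.7).

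The genes around these 9 in the pathway were taken from 6 lists. In the Has2 study, 6 genes of the lists passed the test, all lower in Has2_TG, where 3.75% of all genes were lower and 6.25% higher. Among the receptors and regulators of cAMP, 22 of 26 genes were tested, and 0 were higher and 4 lower, with a median log2 fold change of -0.30 (all genes, -0.027). The adenosine A1 receptor Adora1, which lowers cAMP through Gi, was at 19.3, 20.4, 23.8 and 24.7 FPKM in Has2_WT1 to Has2_WT4 and at 12.5, 11.4, 14.5 and 14.7 FPKM in Has2_TG1 to Has2_TG4. Every transgenic library lay below every control. Adora1 was lower by a log2 fold change of -0.73 with an SE of 0.15 (limma adjusted p = 0.0841), and it passed the unadjusted threshold under each of the 21 alternatives. The stimulatory G protein gene Gnas (-0.44, SE 0.18), the adenylyl cyclase Adcy6 (-0.42, SE 0.17) and the phosphodiesterase Pde4d (-0.81, SE 0.32) were lower too, with overlapping libraries and limma adjusted p-values of 0.462 (Gnas), 0.435 (Adcy6) and 0.430 (Pde4d). The 4 genes that fell thus include some that raise cAMP (Gnas, Adcy6) and some that lower it (Adora1, Pde4d). Adra2a, Adra2b, Adra2c and Npy1r were below the minimum of reads.

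Elsewhere in the Has2 study, Plin5, a droplet protein of oxidative tissues, was at 20.2, 24.3, 32.9 and 19.2 FPKM in the controls and at 18.2, 17.3, 3.35 and 12.1 FPKM in Has2_TG, with no overlap (log2 fold change -1.14, SE 0.48, limma adjusted p = 0.462). It was the 1 gene past the test among 14 droplet proteins and other lipases. Ucp1, the uncoupling protein of thermogenic adipocytes, was at 82.6, 215, 275 and 74.4 FPKM against 206, 36.3, 7.31 and 16.4 FPKM (log2 fold change -2.16, SE 0.90, limma adjusted p = 0.459), with Has2_TG1 among the controls. It was the 1 gene of the 10 cAMP-responsive genes to pass, and the median of that list was 0.25. Protein kinase A (7 of 8 tested), insulin signalling to Pde3b (8 of 8) and the carriers of fatty acids and glycerol (8 of 8) had 0 genes past the test, with medians of -0.11, -0.075 and -0.070. The count of 6 ranged from 1 without Has2_TG4 to 13 without Has2_WT1, where 7.55% and 9.83% of all genes passed. It was 14 without both lymphocyte-rich controls (9.59% of all genes), where Plin5 (-1.23) and Ucp1 (-2.21) were not among them. In this study, progenitor markers were higher in Has2_TG for 6 of 6 genes at an unadjusted p-value under 0.05, against 6.25% of all genes. Their summed level was 674 to 1144 FPKM against 225 to 462 FPKM in the controls. Macrophage markers were higher for 3 of 5 genes at this threshold. B cell markers were lower for 3 of 8 and T cell markers for 2 of 7, against 3.75% of all genes. Adipocyte, skeletal muscle and endothelial markers had 0 genes past it. The part of these markers in the values of the lists was not tested.

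In the PH20 study, 6 genes of the lists passed, 5 higher and 1 lower in PH20_TG, where 3.20% of all genes were higher and 3.39% lower. Irs2, an adaptor of the insulin receptor, was at 7.61, 9.72, 7.96 and 4.54 FPKM in PH20_WT1 to PH20_WT4 and at 11.2, 16.5, 12.9 and 10.9 FPKM in PH20_TG1 to PH20_TG4, with every transgenic library above every control. Irs2 was higher by a log2 fold change of 0.82 with an SE of 0.24 (limma adjusted p = 0.664), and it was the 1 gene of 8 in insulin signalling to pass. Of the 14 droplet genes 2 were higher, the droplet protein Plin2 (0.65, SE 0.23) and Hilpda (0.68, SE 0.23), whose product inhibits Pnpla2 as G0s2 does. The carrier Fabp5 was higher by 0.71 (SE 0.27), 1 of 8 in its list. Without PH20_TG1, and without PH20_TG4, Irs2, Hilpda, Plin2 and Fabp5 still passed. Without the lymphocyte-rich controls Irs2 still passed (0.93), and Plin2 (0.37), Fabp5 (0.34) and Hilpda (0.72) did not. With the B cell score as covariate Plin2 was at 0.28, Fabp5 at 0.24 and Hilpda at 0.70, and none of these 3 passed. Relative to the adipocyte markers Irs2 (0.55), Hilpda (0.41), Plin2 (0.38) and Fabp5 (0.44) did not pass either.

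Among 9 cAMP-responsive genes tested in the PH20 study, Sik1 was higher (0.74, SE 0.29) and Rgs2 was lower (-1.08, SE 0.44). Without PH20_TG1 or PH20_TG4 Sik1 no longer passed (0.58 and 0.57) and Rgs2 still did. Without the lymphocyte-rich controls Sik1 passed (0.95) and Rgs2 did not (-1.28). Relative to the adipocyte markers Sik1 did not pass (0.47). The regulators of cAMP (23 of 26 tested) and protein kinase A (8 of 8) had 0 genes past the test, with medians of 0.12 and 0.13. In protein kinase A the smallest p-value was that of the regulatory subunit Prkar1b (log2 fold change 0.81, SE 0.40, limma adjusted p = 0.731). None of the genes of the 6 lists passed after adjustment in this study or in the Has2 study. The skeletal muscle markers, of which 9 of 10 passed the unadjusted threshold as lower in PH20_TG, moved with this comparison. With their score as a covariate the share of all genes past the threshold fell from 6.59% to 2.35%. None of these 6 genes passed then while 2 others of the lists did, and the log2 fold change of Rgs2 went from -1.08 to -0.16. The 9 genes of lipolysis kept their direction with that covariate, with a median of 0.26 and 9 of 9 higher.

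**Figure D5:**
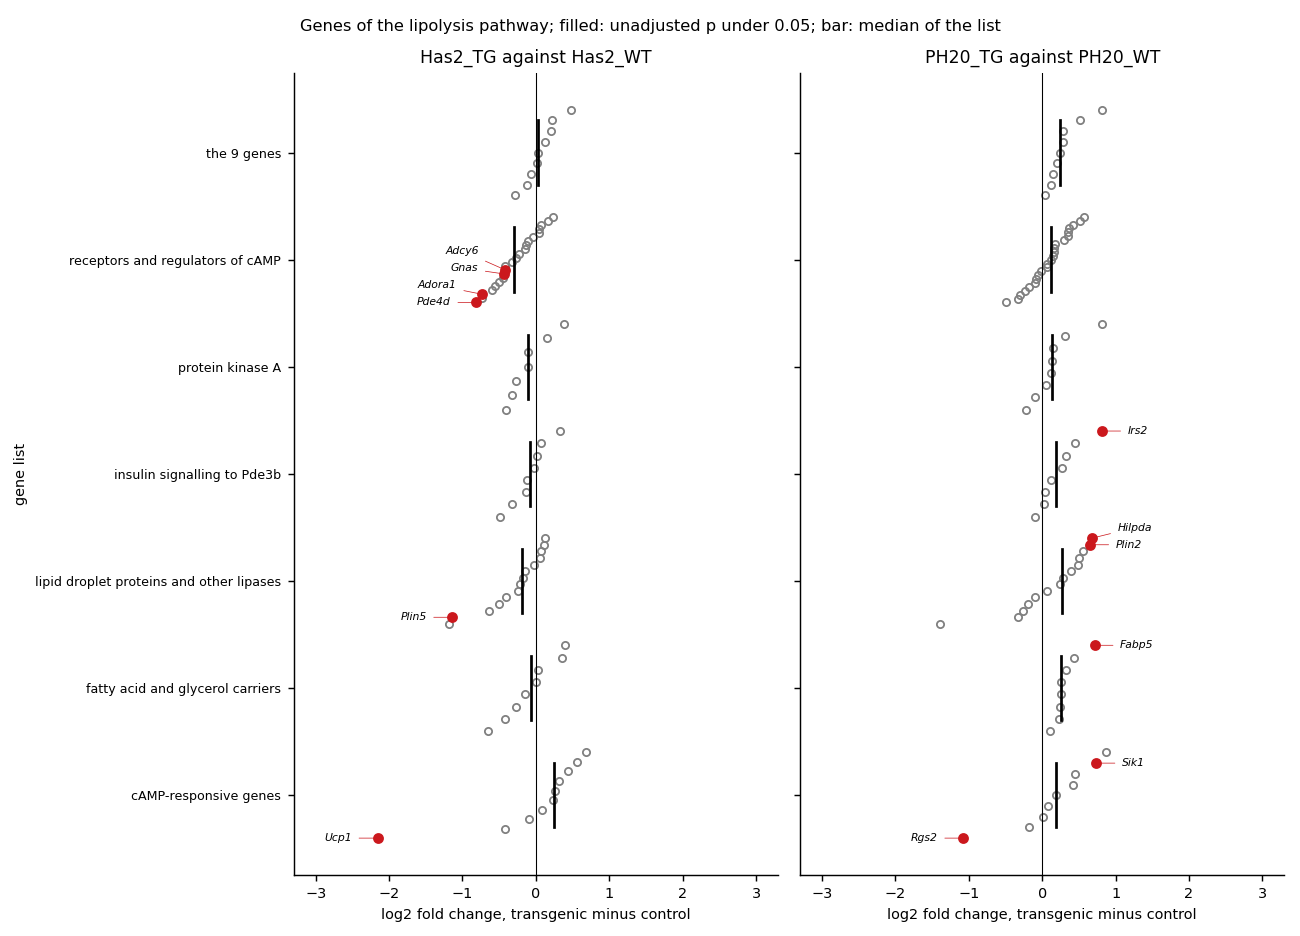
Log2 fold change (horizontal axis, transgenic minus control, on log2(FPKM + 0.1)) of each tested gene of 7 lists, for the Has2 study (left) and the PH20 study (right); filled points passed at an unadjusted p-value under 0.05 and bars mark the median of a list. The cAMP regulators lie mostly below 0 in the Has2 study (median -0.30), and the 9 genes in the top row have no filled point in either study.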

How the data were processed

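Bulk RNA of iWAT was sequenced in 16 libraries. The authors mapped the reads with STAR, whose gene counts they used, and deposited FPKM for 54532 genes with each gene's length. The submitters' processing notes name STAR version 2.7.9a and build GRCm38. How FPKM was computed from the counts was not given in the sources used here. Undoing the length and the library total turned 100% of the deposited values into whole reads (within 0.05), and the total differed from the sum of reads by a factor of 0.886 to 1.14, so that the authors' values carry a scaling between libraries.

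The 9 genes, the gene lists and the tests were chosen with earlier results of these data known. Groups were taken from the library titles. The labels do not say whether each library is a separate mouse, so that p-values measure the spread between these libraries. No pair of the 120 pairs of libraries agreed within counting noise (smallest chi-square per degree of freedom, 28.8).

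Since FPKM is not a count, the 8 libraries of a study were fitted on log2(FPKM + 0.1) in limma 3.58.1 under R 4.3.3, with a variance trend and only genes that averaged 50 or more reads. Fold changes on this scale understate those of low genes. The difference between studies and the comparison of controls used all 16 libraries. A gene was called at an unadjusted p-value under 0.05, the threshold of the study, with Benjamini-Hochberg values beside it. Ratios were tested by exact permutation (scipy version 1.17.1). The fit was tested on simulated data with known changes. Low levels, such as the 60 to 508 reads of Adrb1 per library, also carry counting error.

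The genes named are the 9, the genes of each pathway list past the threshold in either study (or the 1 with the smallest p-value where none passed), and for each of the 9 the 3 genes with the highest Pearson's r. The alternatives tried were no minimum of reads, a minimum mean FPKM of 1, a pseudocount of 1, median-of-ratios scaling, quantile normalization, levels relative to the adipocyte markers, voom weights, no variance trend, the skeletal muscle or B cell score as a covariate, all 16 libraries in 1 fit, the replicate number as a block and each library left out. Leaving out the lymphocyte-rich controls was added after the data were seen.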

Additional observations from a re-analysis of the deposited data

Results flagged for a closer look

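Among the 9 genes, 1 of 36 groups of 4 libraries held a library far from the others by Dixon's test, and chance alone gives this in about 1 in 20 groups. Pde3b was at 46.1 FPKM in Has2_TG1, with the other 3 libraries of Has2_TG at 32.0, 32.0 and 32.4 FPKM. Over all 22 named genes, 6 of 86 groups did. Fabp5 was at 149.8 FPKM in Has2_WT3, against 48.4 to 60.3 FPKM in the other Has2_WT libraries, and at 94.7 FPKM in PH20_TG3, against 57.5 to 62.1 FPKM in the other PH20_TG libraries. Gnas was at 9.58 FPKM in PH20_WT2, against 5.48 to 5.90 FPKM in the other PH20_WT libraries. Rgs2 was at 5.57 FPKM in Has2_WT4, against 9.66 to 10.0 FPKM in the other Has2_WT libraries. Ucp1 was at 206 FPKM in Has2_TG1, the library with the high Pde3b, against 7.31 to 36.3 FPKM in the other Has2_TG libraries.

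Between the studies, the log2 fold changes of 5 of the 22 named genes differed at an unadjusted p-value under 0.05 by the interaction term of limma over 16 libraries, and none of the 5 is among the 9 genes. The difference, Has2 study minus PH20 study, was -1.15 for Plin2 (SE 0.38), -1.08 for Adora1 (SE 0.36), -1.36 for Fabp5 (SE 0.47), -0.89 for Hilpda (SE 0.32) and -0.78 for Adcy6 (SE 0.30). After adjustment over 12593 genes the values were 0.598, 0.598, 0.598, 0.602 and 0.609, and limma called 0 genes of the table with 970 at an unadjusted p-value under 0.05. Without the lymphocyte-rich controls the difference was -0.92 for Adora1 and -0.74 for Adcy6, and relative to the adipocyte markers it was -0.68 for Hilpda, and these 3 values no longer passed. These 5 were named for their change in 1 of the studies, so that a difference between the studies is not independent of the naming.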

How the results depend on the processing

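The counts behind a statement on the 9 genes held at 0 of 9 in each comparison under the alternatives, with few exceptions, and every value that changed sign was an unpassed difference. In the PH20 study 1 gene, G0s2, passed with all 16 libraries in 1 fit (limma adjusted p = 0.899), where 5% of all genes passed. It also passed with the replicate number as a block (limma adjusted p = 0.390), where 10.4% of all genes passed. With 1 library left out the count was 0 to 1 in the Has2 study, 0 to 1 in the PH20 study, 0 to 4 between the controls and 0 to 0 for the difference between the studies. In the same order, the share of all genes past the threshold was 7.51% to 11.6%, 4.56% to 9.35%, 7.44% to 12.8% and 5.06% to 10.7%. Of the single values of the 9 genes, 774 kept direction and side of the threshold, 87 took the opposite sign and 12 newly passed. Voom weights on the reads, of which 100% of values were whole within 0.05, called 1243 genes in the Has2 study and 812 in the PH20 study, against 1261 and 826. Depth limits chiefly Adrb1, at 60 to 508 reads per library.

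Log2 values with the opposite sign were as follows. With quantile normalization, Has2_TG against Has2_WT gave Pnpla2 0.059, Lipe -0.011 and Mgll -0.00014, PH20_TG against PH20_WT gave Pde3b -0.033, and the difference between studies gave Pnpla2 0.050. Relative to the adipocyte markers, the Has2 study gave Lipe -0.032 and Mgll -0.039, the PH20 study gave Pnpla2 -0.15, Lipe -0.12, Plin1 -0.033, Adrb3 -0.062 and Pde3b -0.24, the difference gave Pnpla2 0.031, Lipe 0.090, Abhd5 0.055 and Adrb1 0.17, and the controls gave Lipe -0.063. With the B cell score in the model, the Has2 study gave Lipe -0.19, Mgll -0.19 and Abhd5 -0.078, the PH20 study gave Pnpla2 -0.31, Lipe -0.18, Mgll -0.028, Plin1 -0.099, Adrb3 -0.27 and Pde3b -0.27, and the difference gave Adrb3 -0.020. With the skeletal muscle score, Adrb3 was -0.14 for the difference and 0.039 between controls, and a pseudocount of 1 gave Adrb1 0.00036 for the difference. Without the lymphocyte-rich controls, the Has2 study gave Lipe -0.21, Mgll -0.20 and Abhd5 -0.096, the PH20 study gave Pnpla2 -0.21, Lipe -0.11, Plin1 -0.041, Adrb3 -0.14 and Pde3b -0.21, and the difference gave Pnpla2 0.052 and Adrb1 0.19. The cause of these changes was not tested.

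With 1 library left out, the values that changed sign ranged as follows. In the Has2 study they were Abhd5 -0.039 to 0.34, G0s2 -0.028 to 0.39, Lipe -0.098 to 0.18, Mgll -0.092 to 0.11 and Pnpla2 -0.14 to 0.026. In the PH20 study they were Adrb3 -0.083 to 0.50, Lipe -0.052 to 0.28, Pde3b -0.16 to 0.16 and Pnpla2 -0.14 to 0.29. Between controls they were Adrb3 -0.37 to 0.070 and Lipe -0.038 to 0.29. For the difference between studies they were Abhd5 -0.32 to 0.053, Adrb1 -0.40 to 0.30, Adrb3 -0.30 to 0.29, Lipe -0.25 to 0.078 and Pnpla2 -0.35 to 0.079. The log2 ratio of Adrb3 to Adrb1 differed by -0.50 to 0.00064 in the Has2 study and -0.59 to 0.054 in the PH20 study, and that of Plin1 to Abhd5 by -0.16 to 0.10 in the PH20 study.

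Genes of the pathway lists past the threshold were 6 in each study. In the Has2 study they numbered 3 without a variance trend, 13 with the B cell score and 14 without the lymphocyte-rich controls. The share of all genes was 9.84%, 9.21% and 9.59% in these fits. With 1 library left out they numbered 1 (without Has2_TG4, 7.55% of all genes) to 13 (without Has2_WT1, 9.83%). In the PH20 study they numbered 2 relative to the adipocyte markers (2.67% of all genes) and 2 with the skeletal muscle score (2.35%). They numbered 14 with the replicate block (10.4%) and 4 to 9 with 1 library left out (4.56% to 9.35%). No library left out ended the calls of Adora1, Irs2 and Hilpda, and that of Plin2 was lost without PH20_TG3. Relative to the adipocyte markers the calls of Irs2, Hilpda, Plin2, Fabp5 and Sik1 were lost. In the Has2 study the call was lost without each of Has2_WT2, WT3, TG3 and TG4 for Adcy6, Has2_WT3, WT4, TG1, TG2 and TG4 for Gnas, Has2_WT3, WT4, TG2, TG3 and TG4 for Pde4d, Has2_WT2, WT3 and TG4 for Plin5, and Has2_WT2, WT3, TG2, TG3 and TG4 for Ucp1. In the PH20 study it was lost without each of PH20_WT1, WT3 and TG3 for Fabp5, PH20_WT2, WT3, WT4, TG2 and TG3 for Rgs2, and PH20_WT2, WT3, WT4, TG1 and TG4 for Sik1. The deviations of same-numbered libraries had correlations of -0.18 to 0.13 in the Has2 study. In the PH20 study these were 0.35, 0.42, -0.033 and -0.042 for replicates 1 to 4. There PH20_TG1 and PH20_TG2 were most like the control of their own number, and PH20_TG3 and PH20_TG4 were not. The library titles do not call equal numbers a pair. As a block the replicate numbers changed the share of all genes called from 10% to 9.15% in the Has2 study and from 6.59% to 10.4% in the PH20 study.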
